A study of Mus musculus with 6 samples.

Results

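The 7 genes described here, Mri1, Gadd45gip1, Syce2, Gcdh, Klf1, Fbxw9 and Dhps, lie between 84.2 and 85.1 Mb of mouse chromosome 8 (mm10), and their RNA was lower in FTO knockout liver than in wild type liver. They are 7 of 25690 genes in the table and 7 of 40 in that interval. They were chosen by their position and by their lower FPKM in this same comparison, so their lower levels are given as a description, with no test. RNA of hepatic tissue was sequenced from 3 FTO knockout libraries and 3 wild type control libraries. The labels give the genotype as the difference between the groups. They give neither strain, age or diet, nor the driver of the hepatic deletion, nor whether each library came from its own animal, so p-values measure only the spread between these libraries, which may be technical. The value for every gene is its FPKM, a count of fragments scaled to transcript length and library depth.

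FTO is a demethylase that removes the methyl group of N6-methyladenosine in RNA. The 7 genes are not known as one pathway. Gcdh encodes glutaryl-CoA dehydrogenase, a mitochondrial enzyme on the route that breaks down lysine and tryptophan, and Mri1 encodes methylthioribose-1-phosphate isomerase, an enzyme that recycles the sulfur-containing by-product of polyamine synthesis back to methionine. Dhps encodes deoxyhypusine synthase, which starts the conversion of a lysine of the translation factor eIF5A to hypusine, and Gadd45gip1, also called Crif1, encodes a protein of the large subunit of the mitochondrial ribosome. Fbxw9 encodes an F-box protein with WD repeats, of the kind that carries substrates to SCF ubiquitin ligases. Klf1 encodes the erythroid Krüppel-like factor, which activates globin and other red cell genes, and Syce2 encodes a central element protein of the synaptonemal complex, which joins paired chromosomes in meiosis.

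In GENCODE M21 (GRCm38, the assembly of mm10) the genes are found at chr8:84249906-84257326 (Mri1, ENSMUSG00000004996, minus strand), chr8:84831522-84835482 (Gadd45gip1, ENSMUSG00000033751, plus strand), chr8:84872111-84888221 (Syce2, ENSMUSG00000003824, plus strand), chr8:84886393-84893921 (Gcdh, ENSMUSG00000003809, minus strand), chr8:84901928-84905291 (Klf1, ENSMUSG00000054191, plus strand), chr8:85060055-85067124 (Fbxw9, ENSMUSG00000008167, plus strand) and chr8:85071757-85075162 (Dhps, ENSMUSG00000060038, plus strand). Mri1 stands apart from the rest by 574 kb. The spans of Syce2 and Gcdh overlap by 1829 bases with 0 shared exon bases, Klf1 starts 8.01 kb beyond Gcdh, and 4.63 kb separate Fbxw9 from Dhps. In other pairs the exons themselves overlap a gene on the opposite strand. Dhps shares 128 of its 2324 exon bases with Wdr83, and Fbxw9 shares 217 of 3383 with the noncoding gene A230103J11Rik. The sources used here do not say whether counting used strand, so fragments of such overlapping genes cannot be told apart, and the values of genes of the interval with overlapping neighbours are uncertain.

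Promoter sequence was available from RefSeq (GRCm38.p6) for 6 of the 7 genes, all but Gadd45gip1. Shown here, 5′ to 3′ on the strand of the gene and ending just before its first annotated base, are Gcdh, the most abundant of the 7, Klf1, the least abundant and the one with the largest ratio, Fbxw9, with the largest change on the log2 scale, and Mri1, which lies apart. Capitals mark matches, on either strand, to any of 9 motifs. The motifs were the GATA motif GATAA, the CACCC box (its own letters), the CCAAT box (its own letters), the GC box GGGCGG, the ETS motif CCGGAAG, the cyclic AMP response element TGACGTCA, the TATA motif TATAAA, the E-box CACGTG and the palindromic NRF1 motif, which is the last capital run of Mri1. No marked matches overlap in these 4 sequences. The windows are chr8:84893922-84894171 for Gcdh, chr8:84901732-84901927 for Klf1, chr8:85059869-85060054 for Fbxw9 and chr8:84257327-84257574 for Mri1.
Gcdh: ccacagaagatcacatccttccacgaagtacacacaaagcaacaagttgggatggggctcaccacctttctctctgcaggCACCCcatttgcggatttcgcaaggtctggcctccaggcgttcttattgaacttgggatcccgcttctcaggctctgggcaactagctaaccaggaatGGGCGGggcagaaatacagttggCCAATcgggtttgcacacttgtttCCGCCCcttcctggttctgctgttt
Klf1: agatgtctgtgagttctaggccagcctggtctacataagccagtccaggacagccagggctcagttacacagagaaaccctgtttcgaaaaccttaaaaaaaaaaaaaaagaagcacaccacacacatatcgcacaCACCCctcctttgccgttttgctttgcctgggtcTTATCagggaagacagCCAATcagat
Fbxw9: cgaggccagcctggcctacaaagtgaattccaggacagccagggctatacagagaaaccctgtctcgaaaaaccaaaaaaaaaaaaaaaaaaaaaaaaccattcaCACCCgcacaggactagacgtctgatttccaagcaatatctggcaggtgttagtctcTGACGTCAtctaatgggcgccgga
Mri1: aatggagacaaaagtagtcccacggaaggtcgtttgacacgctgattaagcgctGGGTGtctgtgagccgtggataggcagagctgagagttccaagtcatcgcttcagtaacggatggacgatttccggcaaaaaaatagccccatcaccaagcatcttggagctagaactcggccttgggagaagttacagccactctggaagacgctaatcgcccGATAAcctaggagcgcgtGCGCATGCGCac
All 4 of these promoters held a CACCC match, as did 52% of all windows, and no other motif was in more than 2 of the 4. In the 250 bases before the RefSeq start, Gcdh had GGGCGG matches at 72 and 25 bases before the start and CCAAT at 49. Klf1 had CACCC at 114, GATAA at 80 and CCAAT at 64 bases before the start. Fbxw9 had the 8-base TGACGTCA at 88 bases before the start, a motif in 1.55% of all 32851 promoter windows of that length, and Mri1 had the NRF1 motif at 14 bases before the start, which 0.782% of the windows hold. CCGGAAG, in 6.91% of windows, lay 69 bases before the RefSeq start of Fbxw9 (beyond the end of the stretch shown) and 41 before that of Dhps. Over the 7 windows of the 6 genes (Syce2 has 2, which overlap each other), CACCC was found in 4. GATAA was found in 3 of them and in 22.6% of all windows, and CCAAT in 2 and 33.8%. GGGCGG was found in 3, both windows of Syce2 and that of Gcdh, and in 32.7% of all windows. The E-box was found in 1 (the second Syce2 window) and in 6.02% of all windows, and the TATA motif in 0 and 12.4%. Each match is a description of letters, not of a bound site. GC content was 49.2% for Klf1, with 3 CpG sites, and 53.6% for Mri1, with 18, against a median of 52.4% over all windows.

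Depth, inferred from the steps between low values, was 34140000 to 42530000 fragments per library. Between libraries of a group, the median absolute log2 difference of the 784 genes of 100 to 1000 FPKM was 0.12 to 0.19 among knockout libraries and 0.14 between wild type replicates 1 and 2. Wild type replicate 3 stood apart, at 0.42 and 0.29 from those libraries. Fto itself had 1.79, 3.83 and 2.66 FPKM in knockout replicates 1, 2 and 3, against 6.67, 6.02 and 6.40 FPKM in wild type replicates 1, 2 and 3 (log2 change -1.0, SE 0.19, limma adjusted p 0.0386). The value covers the whole gene, so the deleted part was not resolved. Hepatocyte marker genes such as Apoa1 and Cps1 were at 3982 and 238 FPKM or more in all 6 libraries, while the albumin gene Alb was listed at 0 in knockout replicate 3 and wild type replicate 1, which can be a failed estimate. Each of the 7 genes had a value above 0 in every library.

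Among the enzymes, Gcdh was by far the most abundant. Gcdh had 182, 222 and 196 FPKM in knockout replicates 1, 2 and 3, against 305, 346 and 349 FPKM in wild type replicates 1, 2 and 3. The groups did not overlap, and the lowest wild type library was 1.37 times the highest knockout library, the narrowest gap of the 7. Its knockout mean of 199.9 ± 20.0 FPKM was 60.0% of the wild type mean of 333 ± 24.8 FPKM (SD, n = 3 each; log2 change -0.74, SE 0.13). Here and below, log2 changes are differences of log2(FPKM + 1), knockout minus wild type, which understates the change of low genes.

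Mri1 was measured at 4.23, 6.47 and 5.24 FPKM in knockout replicates 1, 2 and 3, against 10.3, 9.23 and 11.5 FPKM in wild type replicates 1, 2 and 3. Every knockout library was below every wild type library, and knockout replicate 1 was the lowest. The mean was 5.31 ± 1.12 FPKM in knockout and 10.4 ± 1.14 FPKM in wild type (SD, n = 3 each; log2 change -0.86, SE 0.15).

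Of the genes of protein synthesis, Dhps had 2.40, 2.83 and 2.75 FPKM in knockout replicates 1, 2 and 3, against 5.13, 4.77 and 6.41 FPKM in wild type replicates 1, 2 and 3. The knockout libraries lay within a narrow band, and wild type replicate 3 was the highest. The knockout mean, 2.66 ± 0.230 FPKM, was 48.9% of the wild type mean, 5.43 ± 0.862 FPKM (SD, n = 3 each; log2 change -0.81, SE 0.13). Wdr83, which overlaps Dhps tail to tail, had 12.6 to 17.0 FPKM in knockout and 17.5 to 19.3 FPKM in wild type, with a log2 change of -0.31.

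Gadd45gip1 had 6.01, 4.21 and 5.27 FPKM in knockout replicates 1, 2 and 3, against 10.4, 10.5 and 13.1 FPKM in wild type replicates 1, 2 and 3. It was the one gene of the 7 that was lowest, not highest, in knockout replicate 2. Its mean was 5.16 ± 0.906 FPKM in knockout and 11.3 ± 1.48 FPKM in wild type (SD, n = 3 each; log2 change -1.01, SE 0.15).

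Fbxw9 was at 5.78, 8.05 and 4.41 FPKM in knockout replicates 1, 2 and 3, against 14.0, 16.8 and 13.8 FPKM in wild type replicates 1, 2 and 3. It spread most among the knockout libraries, with a coefficient of variation of 30.3% in knockout and 11.1% in wild type. The mean was 6.08 ± 1.84 FPKM in knockout and 14.9 ± 1.66 FPKM in wild type (SD, n = 3 each), and its log2 change of -1.19 (SE 0.19) was the largest of the 7.

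Klf1 was the scarcest of the 7 and had the largest ratio. Its values were 0.370, 0.584 and 0.499 FPKM in knockout replicates 1, 2 and 3, against 2.38, 2.25 and 2.11 FPKM in wild type replicates 1, 2 and 3. The lowest wild type library was 3.61 times the highest knockout library. The knockout mean of 0.484 ± 0.108 FPKM was 21.6% of the wild type mean of 2.25 ± 0.135 FPKM (SD, n = 3 each), or 4.64-fold lower, while the log2 change after adding 1 was -1.13 (SE 0.11) and that after adding 0.1 was -2.02. At the inferred depth and the 1530 bases of its transcript, these levels correspond to about 20, 31 and 32 fragments in knockout replicates 1, 2 and 3 and about 126, 126 and 113 in wild type replicates 1, 2 and 3, so the knockout values rest on few fragments. In bulk tissue, fewer cells of a type and less RNA per cell cannot be told apart.

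Because Klf1 is a red cell factor, the erythroid genes are given beside it. The FPKM of the globin genes Hba-a1, Hba-a2, Hbb-bs and Hbb-bt summed to 353, 262 and 415 in knockout replicates 1, 2 and 3, against 355, 589 and 812 in wild type replicates 1, 2 and 3. For globin RNA, wild type replicate 1 lay within the knockout range, and wild type replicates 2 and 3 lay above it. Klf1 was highest in wild type replicate 1. The part of red cell content in the level of Klf1 was not tested. The list of erythroid genes and KLF1 targets summed to 333 to 476 FPKM in knockout and 418 to 895.3 FPKM in wild type. Of its 21 genes in the table, 4 were at 0 in every library, among them Gata1, which encodes the master transcription factor of red cell precursors, and the blood group genes Kel and Rhag. Other genes of the list were above 0 in every library. Among them, Alas2 had 41.9 to 53.6 FPKM in knockout and 51.0 to 70.5 FPKM in wild type, while Epor and Tal1 stayed below 1 FPKM.

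Syce2 had 2.33, 2.40 and 2.17 FPKM in knockout replicates 1, 2 and 3, against 4.27, 3.53 and 4.24 FPKM in wild type replicates 1, 2 and 3. The groups were apart, and knockout libraries differed little, with a coefficient of variation of 5.06%. The mean was 2.30 ± 0.117 FPKM in knockout and 4.01 ± 0.422 FPKM in wild type (SD, n = 3 each; log2 change -0.60, SE 0.11), the smallest log2 change of the 7. Of 15 other genes of the synaptonemal complex and of meiosis in the table, 2 reached a mean of 1 FPKM and were tested, Tex12 and Rec8, and limma called 0 of these, with 0 below 0.05 before adjustment.

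**Figure D1:**
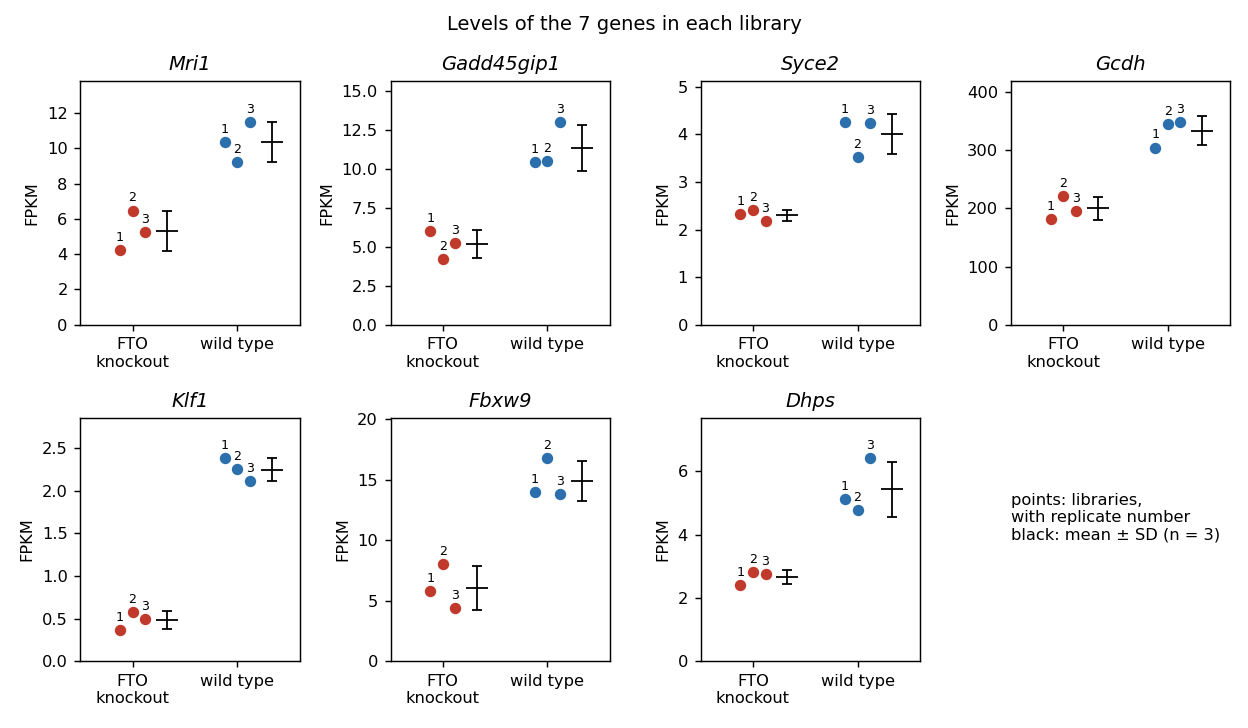
FPKM of the 7 genes (y axis, linear from 0, scaled per gene) in FTO knockout libraries (red, left) and wild type libraries (blue, right), with replicate numbers and the mean ± SD (n = 3) in black. Every red point lies below every blue point of the same gene, with the widest gap for Klf1 and the narrowest for Gcdh.

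Per length, the order of levels was much the same in both groups. In knockout, Gcdh led by far, Fbxw9, Mri1 and Gadd45gip1 overlapped between 4.21 and 8.05 FPKM, Dhps and Syce2 overlapped between 2.17 and 2.83 FPKM, and Klf1 came last. In wild type, Gcdh was followed by Fbxw9, then by Gadd45gip1 and Mri1, which overlapped, then by Dhps, Syce2 and Klf1, which did not overlap. The wild type means spanned a 148-fold range. Among the 10405 genes tested, which had to average 1 FPKM or more, the mean of Gcdh lay at the 96.3 percentile and that of Klf1 at the 6.72 percentile.

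All 7 genes passed that filter. Klf1 passed it only through the wild type libraries, with means of 0.484 FPKM in knockout and 2.25 FPKM in wild type. All 7 were called lower by limma at an adjusted p under 0.05, against 1.65% of tested genes called lower and 2.76% called either way, and all 7 had knockout libraries below every wild type library, against 13.0% of tested genes. Both counts are what the genes were chosen for and add nothing to the choice. Their median log2 change was -0.86, beside -0.00182 for all tested genes. With a library left out, fewer were called, down to 1 of 7 (Klf1) without knockout replicate 3, 2 without knockout replicate 1, 3 without wild type replicate 2, 4 without knockout replicate 2, 5 without wild type replicate 1 and 6 without wild type replicate 3, the library that stood apart. Their median log2 change without wild type replicate 3 was -0.79.

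The size of the decrease varied from library to library. Relative to the wild type mean of each gene, the median over the 7 genes was 44.1%, 54.2% and 50.6% in knockout replicates 1, 2 and 3. Fto showed the same order of libraries, with 28.2%, 60.2% and 41.8% of its wild type mean. For 4 of the 7 genes (Mri1, Gcdh, Klf1 and Dhps) the knockout libraries stood in the order of Fto, replicate 1 lowest and replicate 2 highest, and 18.5% of the other tested genes and 37.2% of the 164 other genes called lower also stood in that order. Mri1 held 40.9%, 62.5% and 50.6% of its wild type mean in knockout replicates 1, 2 and 3, while Gadd45gip1, with 53.0%, 37.1% and 46.5%, ran the other way. Wild type replicate 3 was the highest wild type library for 4 of the genes and the lowest for 2.

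Within groups the genes did not move as one. The deviations of the 6 libraries from their group means gave correlations between pairs of the 7 genes from r = -0.94 (Gadd45gip1 and Klf1) to r = 0.78 (Mri1 and Dhps), with a median of 0.23. Of the 21 pairs, 15 were above 0 and 6 below. These values share libraries and depth and are given as a description. Of all 10376 tested genes outside the interval, those closest to the mean standardized profile of the 7 over the 6 libraries were Sec31b on chromosome 19 (Pearson r = 0.998), Pnldc1 on chromosome 17 (r = 0.997), L3hypdh on chromosome 12 (r = 0.996), and Them7 and Kif16b on chromosome 2 (r = 0.996 and 0.995). The profile carries the group difference for which the 7 were chosen, so these r values are a description and show no shared regulation. Pnldc1, which encodes a poly(A) ribonuclease of piRNA trimming, was at 1.14, 1.85 and 1.51 FPKM in knockout replicates 1, 2 and 3, against 7.55, 6.32 and 8.71 FPKM in wild type replicates 1, 2 and 3.

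The other genes of the interval lay on both sides of 0. Of the 22 other tested genes, 12 had a log2 change above 0 and 10 below, with a median of 0.06. Limma called 2 higher, Ier2 and Junb, against 1.11% of all tested genes called higher. Knockout libraries lay above every wild type library for 5 (Ier2, Calr, Rnaseh2a, Junb and Hook2) and below for others, among them Wdr83, Wdr83os and Man2b1. Over all tested genes, 11.5% lay above and 13.0% below. Junb, which encodes an AP-1 transcription factor, had 11.7, 11.7 and 11.1 FPKM in knockout replicates 1, 2 and 3, against 5.15, 5.59 and 5.96 FPKM in wild type replicates 1, 2 and 3. It lies between Klf1 and Fbxw9, both lower. Ier2, an immediate early gene between Mri1 and Gadd45gip1, averaged 11.8 ± 0.928 FPKM in knockout and 6.21 ± 0.890 FPKM in wild type (SD, n = 3 each). The interval was itself picked for its many changes, so these counts are a description.

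**Figure D2:**
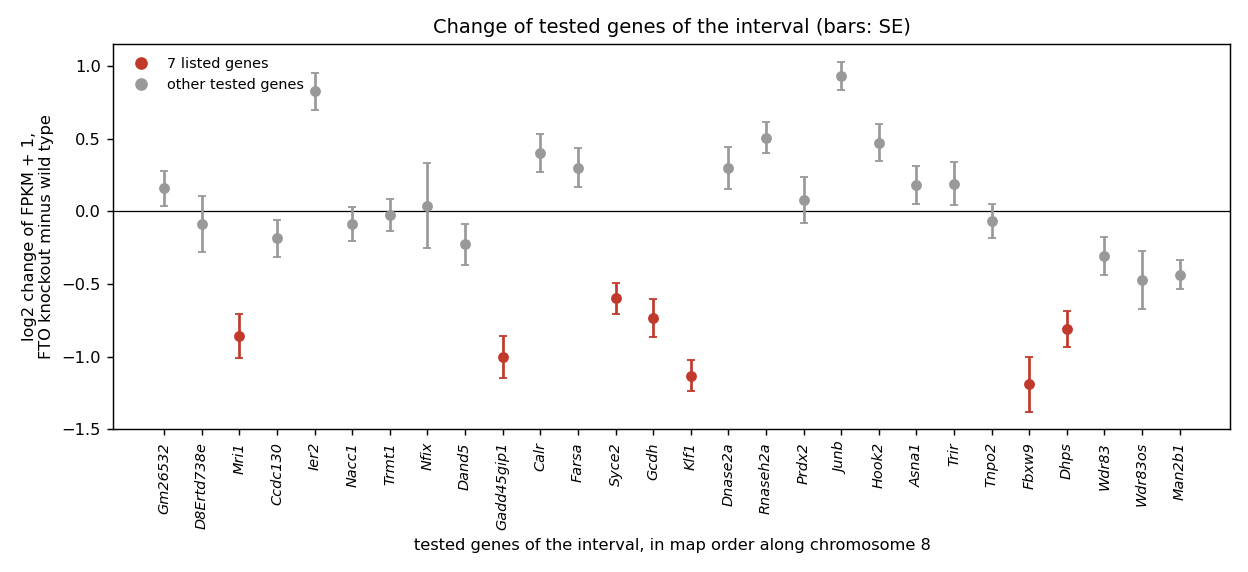
Log2 change of FPKM + 1, FTO knockout minus wild type (y axis, points with SE bars), of 28 of the 29 tested genes of the interval in map order (x axis), with the 7 listed genes in red and the others in grey. Red points lie between -1.19 and -0.60, and grey points reach up to 0.93, the value of Junb. Syce2, Gcdh and Klf1 stand side by side, as do Fbxw9 and Dhps.

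At the edges of the interval, the genes just inside were Gm26532, a noncoding gene with 1.22 ± 0.264 FPKM in knockout and 0.978 ± 0.108 FPKM in wild type, and Man2b1, which encodes lysosomal alpha-mannosidase, with 10.1 ± 0.283 FPKM in knockout and 14.1 ± 0.747 FPKM in wild type (SD, n = 3 each). Just outside lay Gm26887, listed at 0 in 5 of the 6 libraries, and Zfp791, with 0.989 ± 0.128 FPKM in knockout and 0.715 ± 0.0682 FPKM in wild type (SD, n = 3 each). Among genes of the interval that were not listed, Wdr83os had a log2 change of -0.47 and Man2b1 one of -0.44.

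Fto lies on the same chromosome, and its start is 6.24 Mb beyond the end of Dhps and 7.06 Mb beyond the start of Mri1. Between the interval and Fto, 20 genes were tested. Of these, 0 were called by limma, 7 had knockout libraries below every wild type library (Vps35, Orc6, Gpt2, Itfg1, Cnep1r1, Heatr3 and Brd7), and 0 had them above, while over all tested genes 13.0% lay below and 11.5% above. Gpt2, a mitochondrial alanine aminotransferase gene, had 31.5, 57.4 and 51.0 FPKM in knockout replicates 1, 2 and 3, against 84.7, 93.7 and 86.8 FPKM in wild type replicates 1, 2 and 3 (log2 change -0.95, SE 0.21, limma adjusted p 0.0650). The log2 changes of the other 6 were between -0.46 and -0.06. Of the 494 tested genes of chromosome 8 outside the interval, without Fto, 5 were called higher and 8 lower, and their median log2 change was 0.01.

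**Figure D3:**
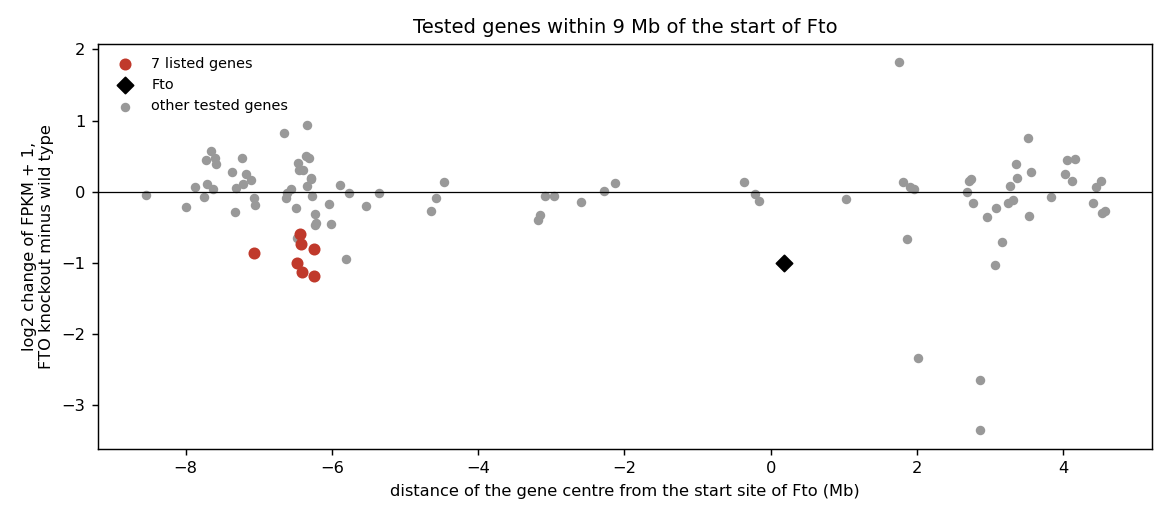
Log2 change of FPKM + 1, FTO knockout minus wild type (y axis), against the distance of each gene's centre from the start site of Fto in Mb (x axis), for tested genes within 9 Mb of that site on either side. The 7 listed genes (red) sit 6.24 to 7.06 Mb to the left of Fto (black diamond) among grey points of both signs.

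The pathways in which the 7 genes act were described from lists of other genes. Over 9 such lists, 134 genes outside the interval were tested. Limma called 0 of them higher, 3 lower and 131 neither way, against 1.11% higher and 1.65% lower among all tested genes. Without adjustment, 7 had a p under 0.05 and were higher and 18 were lower, beside 8.65% higher and 10.0% lower among all tested genes. Their median log2 change was -0.04, beside -0.00182 for all tested genes.

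Around Gcdh, 18 of 22 tested genes of lysine and tryptophan degradation had log2 changes below 0 and 4 above, with a median of -0.23. With no adjustment, 10 passed a limma p of 0.05 as lower and 2 as higher, beside 10.0% and 8.65% of all tested genes. Limma called 1 lower, 0 higher and 21 neither way. Hadh, which encodes 3-hydroxyacyl-CoA dehydrogenase, a step shared with fatty acid oxidation, fell to 137, 152 and 148 FPKM in knockout replicates 1, 2 and 3, against 209, 210 and 233 FPKM in wild type replicates 1, 2 and 3 (log2 change -0.57, SE 0.12, limma adjusted p 0.0483). The call of Hadh was lost when any 1 library other than wild type replicate 3 was left out, with limma adjusted p-values of 0.0806 to 0.181, and also with no filter on low values (0.0536) and with robust empirical Bayes (0.0521).

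Around Mri1, the list of methionine salvage and the methionine cycle had 1 gene called lower by limma, 0 higher and 19 neither way, with a median log2 change of -0.10. Bhmt, the betaine-homocysteine methyltransferase that remakes methionine in liver, fell to 641, 796 and 670.4 FPKM in knockout replicates 1, 2 and 3, against 1334, 1504 and 1504 FPKM in wild type replicates 1, 2 and 3 (log2 change -1.05, SE 0.14, limma adjusted p 0.0101). Its limma adjusted p was 0.0517 without knockout replicate 1, 0.0735 without knockout replicate 3 and 0.0574 without wild type replicate 2.

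Near Dhps, 0 of 12 tested genes of hypusine and polyamine metabolism, a list of both synthesis and breakdown, passed limma's adjusted threshold. By unadjusted p 4 were higher and 1 was lower, and the 12 had a median log2 change of 0.08. Dohh, which encodes the hydroxylase that completes hypusine after deoxyhypusine synthase, had 12.5, 12.4 and 12.2 FPKM in knockout replicates 1, 2 and 3, against 8.64, 9.78 and 9.99 FPKM in wild type replicates 1, 2 and 3 (log2 change 0.35, limma adjusted p 0.119, chosen after its values were seen). Srm, the spermidine synthase gene, and Odc1, the ornithine decarboxylase gene, had log2 changes of 0.61 and 0.43 with limma adjusted p-values of 0.0813 and 0.102. Odc1 was called higher with quantile normalization and without wild type replicate 3.

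For Gadd45gip1, 0 of 48 tested genes of the large mitochondrial ribosomal subunit passed limma's adjusted threshold, 0 were higher and 1 was lower by unadjusted p, and they had a median log2 change of 0.02. The smallest p belonged to Mrpl45, at 9.73 to 13.1 FPKM in knockout and 13.6 to 16.6 FPKM in wild type (log2 change -0.38, limma adjusted p 0.193), and the next to Mrpl47 (log2 change 0.40, limma adjusted p 0.282), which was called higher without wild type replicate 3. Of the 3 GADD45 genes, whose products the protein was named for binding, Gadd45g was called lower by limma, at 3.16, 1.73 and 3.22 FPKM in knockout replicates 1, 2 and 3, against 5.58, 9.53 and 13.9 FPKM in wild type replicates 1, 2 and 3 (log2 change -1.48, SE 0.30, adjusted p 0.0493). Gadd45a and Gadd45b were not called, with log2 changes of -0.23 and 0.68. The call of Gadd45g was lost when any 1 library other than wild type replicate 1 was left out, with limma adjusted p-values of 0.0628 to 0.151, and also with no filter on low values (0.117).

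For Fbxw9, 0 of 14 tested genes of SCF ligases and related F-box proteins passed limma's adjusted threshold and 0 its unadjusted one, with a median log2 change of -0.06. Fbxw4 and Fbxw11, with the smallest p, had log2 changes of 0.30 and -0.14 and limma adjusted p-values of 0.303 and 0.571. For Klf1, 0 of 9 tested Krüppel-like factor genes passed limma's adjusted threshold and 0 its unadjusted one, with a median log2 change of 0.01. The 7 tested erythroid genes had 0 calls by limma and a median log2 change of -0.65. By unadjusted p 4 were lower and 0 higher, beside 10.0% and 8.65% of all tested genes. Those 4 were Hba-a1, Hba-a2, Hbb-bt and Alas2, and the limma adjusted p-values of Hba-a2 and Hbb-bt were 0.246 and 0.247.

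**Figure D4:**
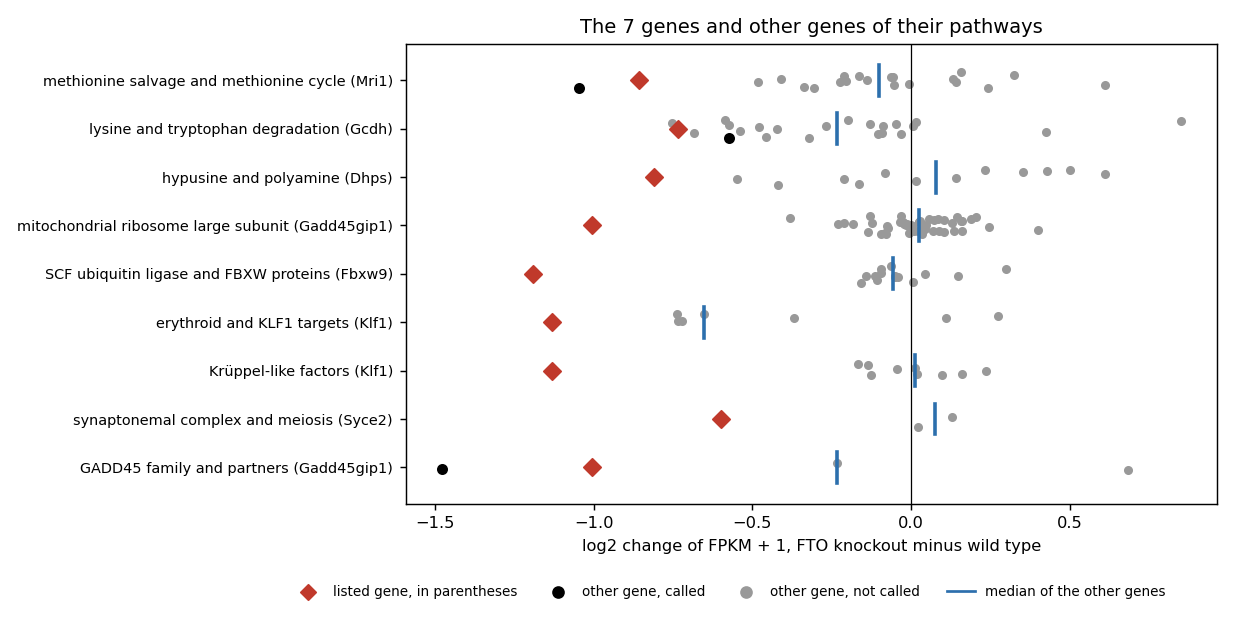
Log2 change of FPKM + 1, FTO knockout minus wild type (x axis), of the tested genes of each list (rows), with the listed gene of chromosome 8 named in parentheses and drawn as a red diamond, genes called by limma in black, others in grey and the median of the other genes as a blue line. The 3 black points are Bhmt, Hadh and Gadd45g, and each diamond lies to the left of the blue line of its row. The genes drawn as diamonds were chosen for their lower FPKM in this comparison, so their place is a description.

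The transcripts of all 7 genes were shorter than the median of the 9785 tested coding genes. The longest coding transcript had 1333 (Dhps) to 2819 bases (Mri1), with a median of 1907 against 2873 over all, and the median number of exons was 5 against 9. GC content had a median of 54.9%, against 49.9%, and reached 61.05% for Klf1, at the 97.7 percentile. The pentamer GGACT, a common sequence of N6-methyladenosine sites, was counted on the transcript strand. It occurred 6 times in Gcdh (2.77 per kilobase, the 96.75 percentile), 5 times in Klf1 (3.27 per kilobase, the 98.6 percentile) and 1 time in Dhps (0.750 per kilobase, the 32.9 percentile), and the median of the 7 was 1.19 per kilobase against 1.04 over all. Methylation was not measured in these libraries.

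Markers of other liver cells are given for the same libraries. The 10 macrophage and Kupffer cell markers all had log2 changes above 0 with 0 called by limma and 5 higher, 0 lower by unadjusted p, and summed to 168 to 292 FPKM in knockout and 57.5 to 198 FPKM in wild type. Hepatocyte markers had 5 higher and 0 lower of 10 at that p and 0 called by limma. Sinusoidal endothelial markers had 0 higher and 1 lower (Lyve1) of 7 at that p and 0 called by limma. Among all tested genes, 8.65% were higher and 10.0% lower at that p. The sums of sinusoidal endothelial markers were 70.1 to 102 FPKM in knockout and 53.3 to 124 FPKM in wild type, those of stellate markers 71.1 to 105 FPKM in knockout and 76.7 to 112 FPKM in wild type, those of cholangiocyte markers 24.7 to 28.7 FPKM in knockout and 17.9 to 34.3 FPKM in wild type, and those of lymphocyte markers 1.29 to 2.29 FPKM in knockout and 1.33 to 2.32 FPKM in wild type. The part of cell makeup in the levels of the 7 genes was not tested.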

How the data were processed

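The authors deposited FPKM values, 1 column per library, for 25690 Ensembl identifiers. The submitters' processing notes name TopHat2 2.1.0, HTSeq, Cufflinks 2.2.1 and build mm10 without their roles, and the sources used here name no annotation release. Groups came from the genotype label, and replicates were numbered in the order of the samples, so numbers pair no libraries. GENCODE M21 matched 24807 identifiers, and 46 rows carried a suffix.

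Genes averaging 1 FPKM or more over the 6 libraries (10405) were tested with limma 3.58.1 in R 4.3.3 (lmFit, eBayes with trend, two-sided) on log2(FPKM + 1), with calls at p under 0.05 after Benjamini-Hochberg adjustment over all of them. The script was tested on simulated data. FPKM keeps no fragment counts, so depth was read off 964 one-transcript genes (3000 to 8000 bases), taking values worth 25000000 to 50000000 fragments per library as 1 fragment. This gave 49 to 60 values per library, 38 to 52 of them within 5% of their median. No count model was used.

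The 7 genes and the lists were chosen with earlier results of these data known. Named are the 7 genes, Fto, tested genes of the interval, per list up to 4 called genes or else up to 2 of smallest p, the 5 genes of most similar pattern, and markers. Other genes, among them Dohh, the genes between the interval and Fto and the untested genes, were chosen after their values were seen. Python 3.11.15 and pandas 2.3.3 were used. A result for 1 gene of the interval is not reported here.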

Additional observations from a re-analysis of the deposited data

How the results depend on the processing

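In every setting run, the 7 genes had log2 changes below 0, a direction that the choice of genes with separate groups fixes. With 0.1 in place of 1 added to FPKM their median log2 change was -0.997, and with single libraries left out it ran from -0.93 to -0.76. All 7 were called with median ratio size factors, quantile normalization, a pseudocount of 0.1 and robust empirical Bayes, and 1 (Klf1) with no filter on low values. Over all tested genes, 180 were called higher with quantile normalization and 93 lower with no filter on low values, against 115 higher and 172 lower, and with single libraries left out 38 to 266 were higher and 39 to 209 lower. There were 65 higher and 62 lower without knockout replicate 1, 103 lower without knockout replicate 2, 38 higher and 39 lower without knockout replicate 3, 60 higher and 54 lower without wild type replicate 2, and 266 higher without wild type replicate 3. Of the genes of the pathway lists, 1 was called higher with quantile normalization and 1 lower with no filter, and with single libraries left out 0 to 2 were higher and 0 to 3 lower, 0 lower without knockout replicate 1, knockout replicate 3 or wild type replicate 2. The cause of these shifts was not tested. No paired analysis was possible because the labels give no replicate numbers that the groups share. Depth limits Klf1 most, at about 20 to 32 fragments in knockout.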

Other observations

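Some genes of the same stretch of chromosome 8 were too low to be tested, and 4 of them are given here, chosen after their values were seen. The noncoding 1700122E12Rik, next to Calr, had 0, 0.102 and 0.0816 FPKM in knockout replicates 1, 2 and 3, against 0.302, 0.381 and 0.458 FPKM in wild type replicates 1, 2 and 3. 1700067K01Rik, to the left of Mri1 and outside the interval, had 0.0351, 0.0946 and 0.0535 FPKM in knockout replicates 1, 2 and 3, against 0.519, 0.334 and 0.703 FPKM in wild type replicates 1, 2 and 3. Gm5741, which lies between Fbxw9 and Dhps, had 1.80, 1.37 and 0.913 FPKM in knockout replicates 1, 2 and 3, against 0.450, 0.213 and 0 FPKM in wild type replicates 1, 2 and 3. Mast1, which encodes a microtubule-associated kinase, had 0.449, 0.290 and 0.322 FPKM in knockout replicates 1, 2 and 3, against 0.181, 0.182 and 0.150 FPKM in wild type replicates 1, 2 and 3. The groups did not overlap for any of these 4 genes, their levels rest on few fragments, and none was tested. Among all tested genes, 13.0% had knockout libraries below every wild type library and 11.5% above. Some other untested genes of the stretch, such as Zswim4, had groups that overlapped.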
